A study of Bos taurus with 8 samples.

Results

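Single-window LOC genes were annotated genes known only by a LOC symbol, that is LOC followed by the NCBI gene number, whose name was carried by 1 window of 3 kb on its chromosome. Members were chosen by symbol and by the number of windows alone, on Chr 1-29, so no read count entered the choice. There were 2896 such windows among 837275 windows on Chr 1-29 and 902984 windows in all. They made up 2896 of the 7756 LOC symbols on these chromosomes.

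The reads came from MIRA-Seq, the methylated CpG island recovery assay, in which sheared DNA is captured by methyl-CpG binding domain proteins and sequenced. More reads in a window mean more captured methylated DNA, a quantity that depends on how many CpGs the window holds as well as on how often they are methylated. The DNA came from skin (dermal) fibroblasts grown from heifers of 19 months, 4 of the Holstein and 4 of the Angus breed, at passage 5 and without treatment, 1 library per animal, and no genetic change or agent was applied to either breed. Libraries held 18691111 to 35525554 reads in windows, and the median window held 3 to 12 reads. Because the assay reads DNA, the fibroblast label could not be checked against expressed marker genes.

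A LOC symbol is a placeholder that NCBI gives to a gene model that has no accepted name yet. Genes named in 1 window include ones with several coding exons, as 214 member windows hold coding exon 2 and 47 hold coding exon 3. Others are intronless. Among these are olfactory receptors, which detect odorants and whose coding sequence lies in a single exon, and replication-dependent histones. Retrocopies of other genes, reinserted into the genome from RNA, are a further intronless kind. Such genes occur in clusters or as isolated copies, and their near-identical relatives can share reads, so levels of single members are uncertain where the alignment could split reads between copies. In mammals, olfactory receptor genes are active in sensory neurons and silent in most other cell types. Their expression in these cultures was not examined here.

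By the number in the symbol, 1640 members (56.6%) were found in the RefSeq gene table, which gave the current symbol and the gene type. Olfactory receptors were the largest family, with 703 members, of which 469 were protein-coding and 234 pseudogenes. Other pseudogenes numbered 592, other protein-coding genes 268, non-coding RNAs 32, immunoglobulin or T cell receptor segments 23 and histones 17. There were also 3 taste or trace amine receptors, 1 zinc finger gene and 1 keratin-associated gene. The classes of ribosomal proteins, interferons, pregnancy proteins, small RNAs and housekeeping gene copies held 0 members under the symbols used. The remaining 1256 members had no entry in the table. Chromosome 15 carried 355 members in 28431 windows, 241 of them olfactory receptors, whereas chromosome 20 carried 33 in 24013.

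Windows of single-window LOC genes held more reads than the windows beside them. The median over members of the mean CPM (the reads of a window scaled to its library's reads in all windows) was 0.373, with quartiles of 0.190 and 0.738, and that of the 2 flanking windows was 0.252. Over all windows on Chr 1-29 the same medians were 0.292 and 0.311. In each library the median log2 ratio of a member to the mean of its flanks, after adding 0.1 CPM to both, was above 0. It was 0.324, 0.300, 0.366 and 0.319 in Holstein animals 1 to 4 and 0.293, 0.331, 0.323 and 0.269 in Angus animals 1 to 4. The breeds overlapped, with means of 0.327 ± 0.0278 (SD, n = 4) and 0.304 ± 0.0282 (SD, n = 4). The mean over the 8 libraries was 0.316 ± 0.029 (SD, n = 8), against -0.112 ± 0.026 for all windows. The size depends on the value added: with 1 CPM in place of 0.1 the members' mean was 0.0876. Along the strand of the gene, the median over members peaked in the member itself: 0.256 CPM at 30 kb upstream, 0.227 in the window upstream, 0.365 in the member, 0.232 in the window downstream and 0.256 at 30 kb downstream.

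**Figure D1:**
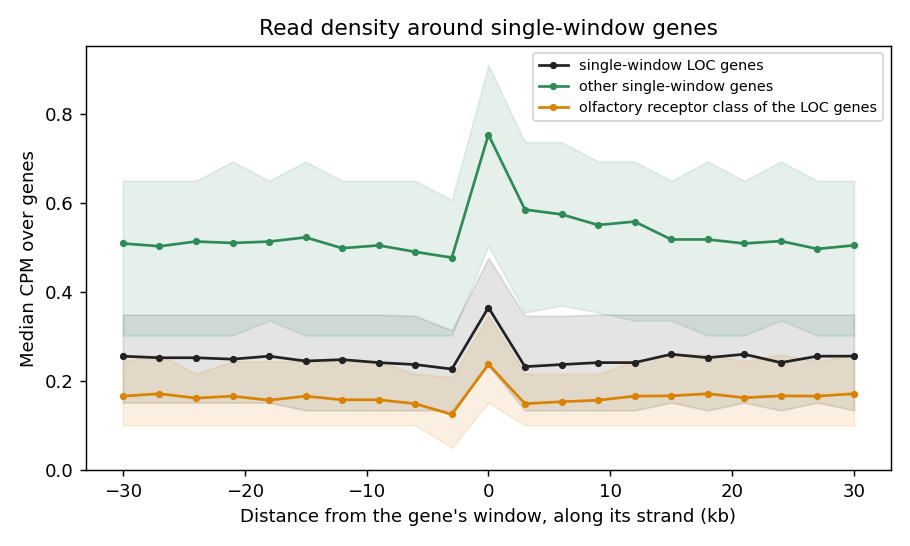
Median CPM over genes (y axis, mean of 8 libraries; bands from the lowest to the highest library) against distance from the gene's window along its strand (x axis, kb) for single-window LOC genes, other single-window genes and the olfactory receptors among the former. Single-window LOC genes rose from 0.227 CPM in the upstream window to 0.365 in the gene's own window and returned to 0.232, and the other single-window genes stood higher throughout.

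Single-window genes with an ordinary symbol gave a ratio of similar size from a higher level. Their median was 0.750 CPM against 0.622 in the flanks, and the mean median log2 ratio was 0.251 ± 0.025 (SD, n = 8). Windows of longer LOC genes had a ratio of -0.095 ± 0.025 (SD, n = 8). The flanks of such a window can lie in the same gene. This ratio therefore cannot show whether longer LOC genes stand above their surroundings. A mean of at least 1 CPM was reached by 499 members (17.2%), against 12.2% of all windows. At the low end 261 members had a mean under 0.1 CPM, a level at or under that of 3 reads in most libraries (0.0844 to 0.161 CPM).

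Tested window by window, more members stood above their flanks than below them. Of 2886 members with a read in their own window or a flank, 947 (32.8%) were above their flanks and 327 (11.3%) below them. The calls were by edgeR's quasi-likelihood test with Benjamini-Hochberg adjustment (FDR < 0.05, fold of at least 2). Over all windows the same calls took 14.9% and 22.1%. With a minimum of 0.5 CPM over the 3 windows in 4 libraries, 354 of 948 members (37.3%) were above and 137 (14.5%) below, beside 14.5% and 21.4% of all windows tested. A member can pass that minimum through its own high window, so the counts without a minimum are the fuller account. Without any test, 31.2% of members exceeded their flanks in 8 of 8 libraries and 12.2% fell short in 8 of 8, compared with 16.4% and 22.7% of all windows. Other single-window genes were close to the members, at 31.4% above without a minimum.

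**Figure D2:**
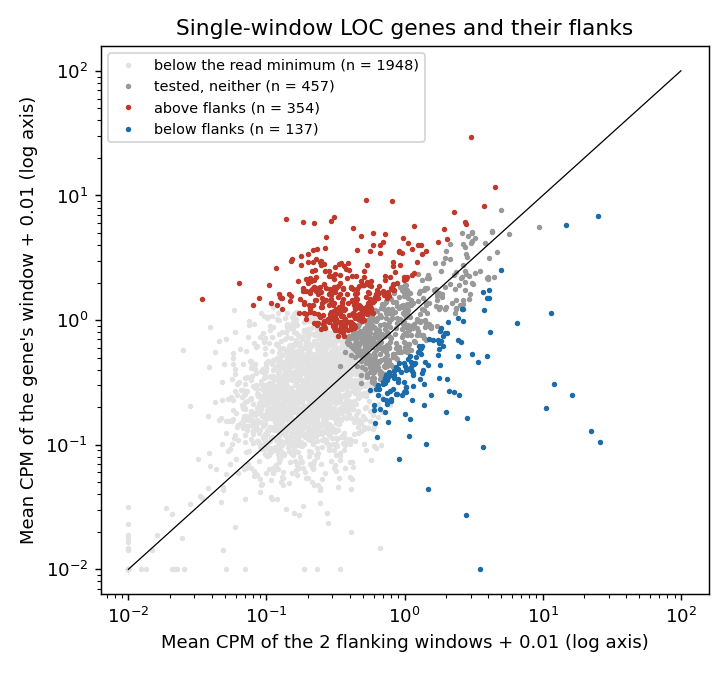
Mean CPM of each single-window LOC gene's window (y axis, log scale, 0.01 added) against the mean CPM of its 2 flanking windows (x axis, log scale, 0.01 added), 1 point per gene, with the line of equal values. The 354 genes called above their flanks lie over the line mostly at flank levels under 1 CPM, and the 137 called below include genes beside windows of over 10 CPM.

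The members furthest above their flanks were above them in all 8 libraries. Their flanks held so few reads that the size of the fold is uncertain. LOC519069 (chr13:15205697-15208696, window with coding exon 1, no entry in the table) held 11, 30, 46 and 54 reads in Holstein and 46, 48, 33 and 43 reads in Angus animals, or 1.47 ± 0.51 CPM (SD, n = 8). Its flanks averaged 0.0242 CPM, and the fitted log2 fold was 5.92 (edgeR adjusted p = 1.28e-20). Every library of this gene lay above the highest flank value of 0.107 CPM.

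LOC782755 (chr21:9957963-9960962), a pseudogene, ranged from 5.34 to 7.53 CPM with flanks at 0.129 CPM, a log2 fold of 5.51. LOC781256 (chr2:84413334-84416333) and LOC100300624 (chr12:56443522-56446521) are also pseudogenes, and had log2 folds of 5.15 and 5.08. LOC100140560 (chr18:53700398-53703397) is now named FBXO46, an F-box protein gene, and held 6.01 ± 1.11 CPM (SD, n = 8) between flanks of 0.110 and 0.315 CPM. LOC782032 (chr11:17294985-17297984), protein-coding, held 2.59 ± 0.578 CPM (SD, n = 8). In these 5 genes no library came near its flanks.

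Members below their flanks lay beside windows of high read count. LOC788149 (chr19:75875-78874), the olfactory receptor pseudogene OR4A2KP, had 0 to 0.243 CPM, and the window before it averaged 51.5 CPM while the one after it averaged 0.0547 CPM. LOC100336229 (chr20:2984018-2987017) had 0.118 CPM beside a window of 44.0 CPM. LOC530773 (chr5:95569506-95572505), the histone gene H4C16, had 0.241 CPM beside a window of 32.4 CPM, and LOC781919 (chr1:4143501-4146500) had 0.186 CPM beside one of 21.0 CPM. In these 4 one neighbour was far higher than the other, and at LOC100336229 the lower neighbour, at 0.708 CPM, was also above the member.

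LOC100337190 (chr9:104547951-104550950) and LOC100847662 (chr15:84894657-84897656) were instead low between 2 covered windows. LOC100337190 averaged 0.0173 CPM between 3.33 and 2.17 CPM. LOC100847662 had 0 reads in all 8 libraries, between 4.21 and 2.83 CPM. With 3 reads per library as the limit that a count of 0 allows, its flanks were at least 29.7-fold higher.

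In all, 22 members had 0 reads in every library, and 21 of them had no entry in the RefSeq table. They included 7 on chromosome 13, within chr13:50361797-50385796, and 7 on chromosome 17. A count of 0 allows up to 0.0844 to 0.161 CPM by library, which covers counting error only. Whether sequence that reads could not be aligned to uniquely had a part in these zeros was not tested.

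The gene class went with both the level and the ratio. Olfactory receptors had the lowest median of the large classes, 0.236 CPM with flanks at 0.154 CPM, yet a ratio of 0.401 ± 0.062 (SD, n = 8). Other pseudogenes had 0.496 CPM and a ratio of 0.523 ± 0.056, and other protein-coding genes 0.649 CPM and 0.482 ± 0.062. Members with no entry in the table had 0.374 CPM and the lowest ratio of the large classes, 0.147 ± 0.042.

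Without a minimum, 238 of 592 other pseudogenes (40.2%) and 105 of 268 other protein-coding genes (39.2%) were above their flanks. Among olfactory receptors 250 of 703 (35.6%) were, beside 14.9% of all windows. Below their flanks were 54 (9.12%), 29 (10.8%) and 49 (6.97%) in the same order, beside 22.1% of all windows. The minimum of 0.5 CPM was passed by 218 of these pseudogenes, 144 of these protein-coding genes and only 66 of the olfactory receptors. The 32 non-coding RNAs and the 23 immunoglobulin or T cell receptor segments did not stand out. Of these classes, 3 members each were above (9.38% and 13.0%), and 4 (12.5%) and 2 (8.70%) were below. Their ratios spanned 0 among the libraries, from -0.214 to 0.113 and from -0.223 to 0.156.

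**Figure D3:**
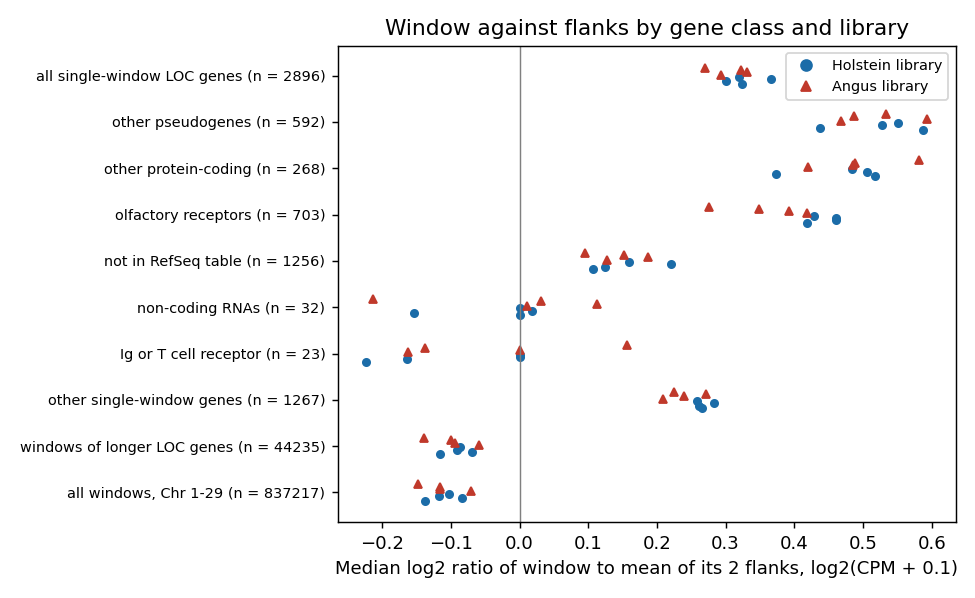
Median log2 ratio of a window to the mean of its 2 flanks (x axis, 0.1 CPM added) by gene class (y axis), 1 point per library, circles for Holstein and triangles for Angus. The large classes of single-window LOC genes lie right of 0 in all 8 libraries, and windows of longer LOC genes and all windows lie left of it. For longer LOC genes the flanks can lie in the same gene.

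Among olfactory receptors the ratio differed by family and chromosome. The 95 members of families 51 to 56, the fish-like class I receptors, had a ratio of 0.625 ± 0.090 (SD, n = 8) while the 608 of families 1 to 14 had 0.359 ± 0.073. Without a minimum, 50 of the 95 (52.6%) were above their flanks and 8 below, and 200 of the 608 (32.9%) were above and 41 below, beside 14.9% and 22.1% of all windows. Only 2 of the 95 and 64 of the 608 passed the minimum of 0.5 CPM, so most of these calls rest on few reads. On chromosome 15 the 241 olfactory receptors had 0.459 ± 0.085, on chromosome 3 the 26 had 0.920 ± 0.130, and on chromosome 5 the 72 had 0.094 ± 0.081. On chromosome 1 the 10 had -0.201 ± 0.235. The median level was 0.655 CPM on chromosome 3 (flanks 0.284) and 0.136 CPM on chromosome 5 (flanks 0.118). Adding 0.1 CPM draws the ratio of low windows toward 0, so ratios at unlike levels are not directly comparable. Genes of a cluster are neighbours and do not vary independently.

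LOC532208 (chr4:107719205-107722204), the receptor gene OR2R3, was the highest of the class. It held 5.11, 6.23, 6.58 and 7.01 CPM in Holstein and 5.38, 6.81, 5.51 and 7.60 CPM in Angus animals, against flanks of 0.285 CPM. The log2 fold to the flanks was 4.45, and the animals of the breeds overlapped. The lowest was LOC100299274 (OR6C293P), a pseudogene with reads in 1 library.

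The 17 histone genes had a median of 0.341 CPM, near that of all members. LOC518318, the histone gene H3-4, held 3.76 ± 0.823 CPM (SD, n = 8) between flanks of 0.256 CPM, and LOC541108 (H2AC18) held 0.0933 CPM. Of the smaller classes, LOC100299277, a non-coding RNA gene, held 4.21 CPM with a log2 fold of 1.24 to its flanks. LOC790017, the zinc finger gene ZFP41, was below its flanks at 0.435 against 1.14 CPM. LOC100297004, the keratin-associated protein gene KRTAP17-1, held 0.678 CPM, LOC787666 (the bitter taste receptor gene TAS2R5) 0.545 CPM and LOC522017 (the trace amine receptor gene TAAR4) 0.209 CPM.

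An annotated coding exon did not separate the members as a whole by median level. The 1205 members with one had a median of 0.367 CPM and a ratio of 0.331 ± 0.043 (SD, n = 8), and the 1691 without had 0.377 CPM and 0.301 ± 0.036. The difference of the median log2 levels, with 0.1 CPM added, was -0.045 ± 0.0715 (SD, n = 8), and it was exactly 0 in 5 libraries, since medians of a few reads fall on the same whole read. Its sign changed with the summary used: the difference of means was 0.0656. Without a minimum, 33.9% of members with a coding exon and 32.0% of those without were above their flanks, beside 14.9% of all windows. With the 0.5 CPM minimum the shares were 33.1% of 393 and 40.4% of 555, beside 14.5% of windows tested.

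Within the olfactory receptors the groups did separate. The 470 with a coding exon had 0.281 CPM and the 233 without had 0.181 CPM, and the difference of the median log2 levels was 0.432 ± 0.119 (SD, n = 8), above 0 in 8 of 8 libraries. Of those without a coding exon 209 are pseudogenes by gene type, and of those with one 25. Among the other members, the 735 with a coding exon had 0.445 CPM and the 1458 without 0.423 CPM, a difference of 0.092 ± 0.0735 that was above 0 in 6 libraries. Olfactory receptors, the class of lower level, made up 470 of the 1205 members with a coding exon and 233 of the 1691 without.

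**Figure D4:**
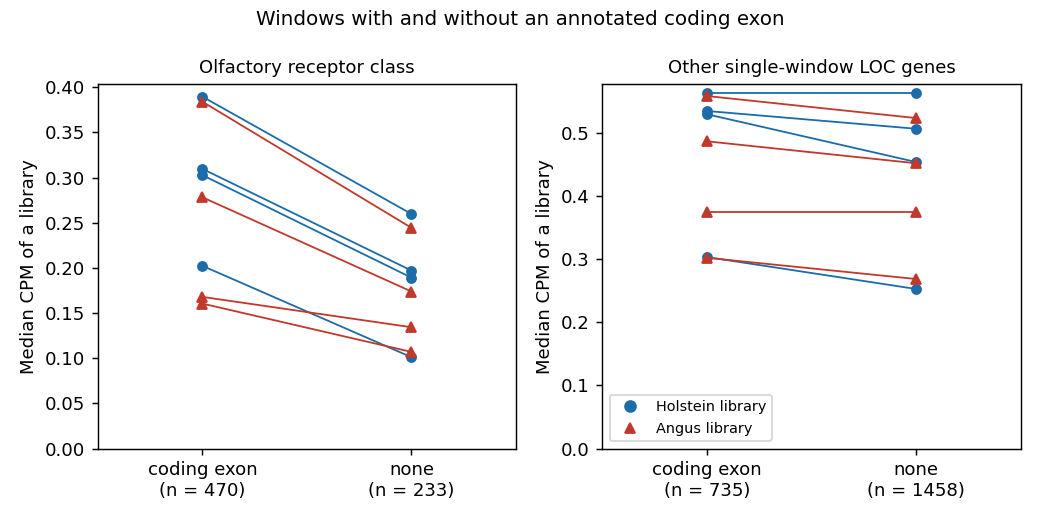
Median CPM per library (y axis) of members with and without an annotated coding exon (x axis), for olfactory receptors and for the other single-window LOC genes, with 1 line per library. Every line falls from left to right for olfactory receptors, and 6 of the 8 lines fall for the other genes.

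Members with a named neighbour were less distinct. The 2129 members whose flanks both carried no gene name had a ratio of 0.394 ± 0.039 (SD, n = 8), and the 767 with a named flank had 0.056 ± 0.037. Of the former 36.0% were above their flanks without a minimum, and of the latter 23.9%, beside 14.9% of all windows. Below their flanks were 9.60% and 16.2%, beside 22.1% of all windows. The named neighbours include windows of genes that overlap the member, as for the 89 members with the same gene name on both sides.

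The 8 members of highest level included genes with and without a coding exon. LOC615245 (chr20:55751718-55754717, no coding exon) led, with 25.6, 34.5, 9.23 and 30.5 CPM in Holstein and 27.1, 47.7, 18.6 and 41.0 CPM in Angus animals. The breeds overlapped, with Holstein animal 3 lowest and Angus animal 2 highest, and its neighbour LOC100140832, also a member, averaged 5.77 CPM.

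LOC100848702 (chr14:1917547-1920546), beside MAF1, held 11.7 ± 1.54 CPM (SD, n = 8), and LOC100300256 (chr8:42533287-42536286), protein-coding, held 9.12 ± 1.36. LOC506943 (chr15:83331457-83334456) held 9.10 ± 1.83 and LOC100848859 (chr17:74980794-74983793) held 8.29 ± 1.80. LOC514637 (chr3:121062510-121065509), now FARP2, held 7.65 ± 1.56 in a stretch where both flanks averaged about 5 CPM, and LOC786331 (chr8:71145187-71148286) held 7.35 ± 0.934. LOC100848954 (chr21:2100563-2103562) held 6.87 ± 1.39 and was below its flanks, for the window after it averaged 47.7 CPM.

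Among members with at least 1 CPM in 4 libraries, the 4 that varied most among animals were not called between breeds. LOC790896 (chr28:30007565-30010564) had 1.37, 13.1, 9.99 and 6.50 CPM in Holstein and 3.60, 3.44, 1.75 and 5.03 CPM in Angus animals, a log2 fold of 1.02 with an edgeR adjusted p of 0.18. LOC531990, the histone gene HIST2H3D, ranged from 0.0336 to 2.03 CPM and LOC516439, the olfactory receptor pseudogene OR5AN19P, from 0.0698 to 1.95 CPM. LOC785480 (chr25:16501-19500), a pseudogene, had 0 reads in Angus animal 4 and 1.91 to 3.57 CPM in the others.

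Breed differences among these genes were few. Of the 528 members with at least 1 CPM in 4 libraries, 4 (0.758%) differed between Holstein and Angus cultures by edgeR's likelihood-ratio test with Benjamini-Hochberg adjustment (FDR < 0.1, FC ≥ 2), against 0.231% of all windows and 0.0923% of those on Chr 1-29. Each breed was higher at 2, whereas total counts in place of TMM scaling gave 3 higher in Holstein and 0 in Angus cultures. Without Holstein 3, Holstein 4, Angus 1 or Angus 2 the count was 2. At an unadjusted p under 0.05 there were 41 members (7.77%), against 4.94% of windows tested. Without the CPM minimum 13 of 2874 members (0.452%) passed, beside 0.102% of all windows.

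LOC100300143 (chr8:23178787-23181786, no coding exon) was higher in Holstein cultures. It held 1.26, 4.03, 2.27 and 1.24 CPM in Holstein and 0.733, 0.695, 0.571 and 0.642 CPM in Angus animals, and the breeds did not overlap. The log2 fold was 1.55 (SE 0.31, edgeR adjusted p = 0.00057). It passed the CPM minimum through its Holstein libraries alone, so a difference was favoured by the minimum, and without any 1 of the 4 Holstein libraries it was not tested. With no minimum, edgeR's adjusted p was 8.65e-05. DESeq2 did not call it, with an adjusted p of 0.151. The window before it carries IFNB3, an interferon beta gene, and held 0.0965 and 0.0429 CPM in the breeds. The window after it carries no gene name and was also higher in Holstein cultures. It held 0.405 to 0.779 CPM in Holstein and 0.0336 to 0.174 CPM in Angus animals, with no overlap. Every library there was under 1 CPM, so the breed test with the CPM minimum left this window out.

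LOC100300862 (chr25:27254601-27257600, no coding exon) held 5.21, 4.54, 6.13 and 3.57 CPM in Holstein and 1.33, 1.56, 1.07 and 4.82 CPM in Angus animals. Angus animal 4 lay within the Holstein range. The log2 fold was 1.15 (SE 0.27, edgeR adjusted p = 0.00933), and the call was lost by the quasi-likelihood test (adjusted p = 0.103), by DESeq2 (0.974), and without Holstein 1, Angus 1 or Angus 2. The next window, member LOC100300816, held 2.00 and 1.05 CPM.

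LOC789246 (chr7:7971446-7974445) is the olfactory receptor gene OR1AB2 and was higher in Angus cultures. It held 0.809, 1.17, 1.36 and 0.647 CPM in Holstein and 1.82, 2.09, 1.68 and 1.87 CPM in Angus animals, with no overlap. The log2 fold was -1.09 (SE 0.23, edgeR adjusted p = 0.00213). It fell under the fold or the FDR limit without Holstein 4 (log2 fold -0.81, adjusted p = 0.126) or Angus 3 (-0.98), and with total counts in place of TMM scaling (adjusted p = 0.437).

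LOC100848660, whose window holds coding exon 1 and which has no entry in the table, was higher in Angus cultures. It held 0.354, 0.779, 1.10 and 0.647 CPM in Holstein and 2.27, 1.29, 0.806 and 2.09 CPM in Angus animals. These ranges of CPM overlapped. The test scaled libraries by TMM, with factors of 1.09 for Holstein animal 3 and 0.677 for Angus animal 3. With CPM divided by each library's factor, the ranges did not overlap. The log2 fold was -1.27 (SE 0.27, edgeR adjusted p = 0.00341). The call was lost without Holstein 4 (adjusted p = 0.105) and with total counts (0.122), and DESeq2 gave it no adjusted p. It reached 1 CPM in exactly 4 libraries, Holstein 3 and Angus 1, 2 and 4, and without any 1 of them it was not tested. With no minimum, edgeR's adjusted p was 0.00434.

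**Figure D5:**
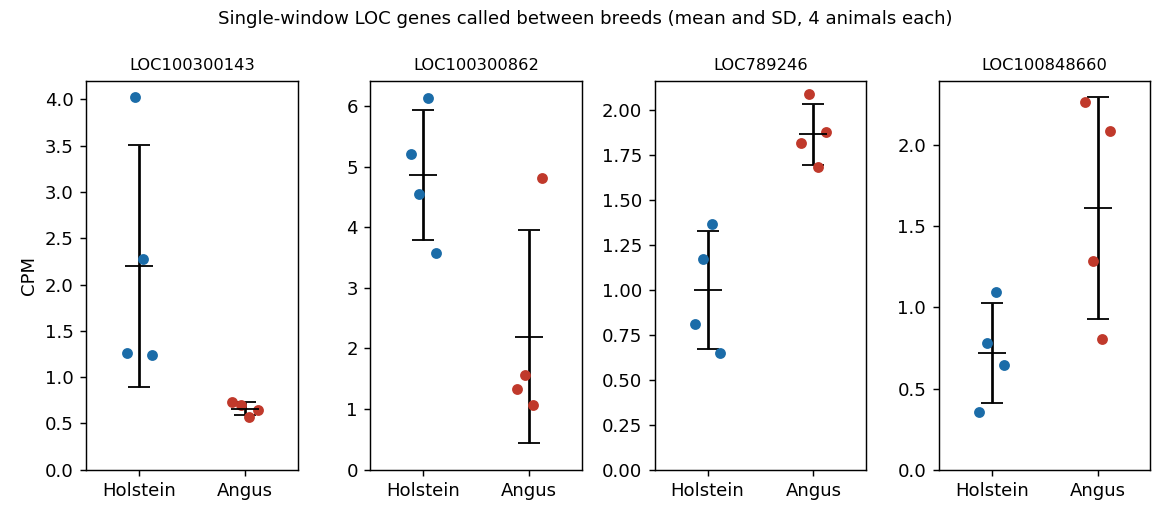
CPM (y axis) of the 4 single-window LOC genes that differed between breeds, 1 point per animal, with the mean and SD of 4 animals. In these CPM, scaled by total reads and not by TMM, the breeds overlap at LOC100300862 and LOC100848660. They do not overlap at LOC100300143 and LOC789246.

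The study's own list of breed-different regions holds 4 members, chosen on these same samples and so no independent evidence. Besides LOC100300143 and LOC100848660, these are LOC100848874 (chr1:4686501-4689500) and LOC526789 (chr1:8325701-8328700), which missed the CPM minimum here. LOC100848874 held 1.55 ± 0.411 CPM in Holstein and 0.344 ± 0.286 CPM in Angus cultures (SD, n = 4), with an edgeR adjusted p of 1.18e-07 without the minimum. LOC526789 held 1.17 ± 0.457 and 0.535 ± 0.168 CPM (SD, n = 4), with an adjusted p of 0.268.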

How the data were processed

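Per the labels, each library was methylated DNA captured from one animal's culture. The authors aligned reads with NextGENe 2.3.4 to UMD v3.1, and deposited, for each 3 kb window, read counts and the lowest, highest and mean coverage. The deposited counts are raw. The highest coverage, a signal, was carried along and not interpreted. The submitters' processing notes also name CASAVA 1.7. CPM used reads in all windows as the total. The breed test was edgeR 4.0.16 (TMM, likelihood ratio, FDR < 0.1, fold of at least 2, CPM of at least 1 in 4 of 8 libraries), after the study's methods, fitted on all windows. The flank test paired each window with its 2 neighbours within a library (edgeR quasi-likelihood, FDR < 0.05, fold of at least 2). DESeq2 1.42.0 and limma 3.58.1 gave alternatives. Both fits were tested on simulated data: with 50 windows changed at each size, the breed fit over 115360 windows recovered 21 at a 2-fold and 50 at a 3-fold change, and the flank fit over 30000 windows 22 and 49. A true 2-fold change lies at the fold limit of the call. Of the simulated calls, 7.10% were false in the breed fit and 0% in the flank fit. Each simulation drew every window with 1 common dispersion, 0.0360 for the breed fit and 0.0126 for the flank fit. These shares need not hold where real windows vary more among animals. Unchanged simulated windows equalled their flanks, whereas 14.5% and 21.4% of real windows tested were called above and below.

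Members, gene lists and tests were chosen with earlier results of these data known. Classes were meant to use RefSeq descriptions, but the gene table (ARS-UCD2.0) gives only symbols and gene types, so those were used, with no coordinates taken from it. Genes named were those called between breeds, listed by the study, highest in CPM, furthest from their flanks, most variable, or highest and lowest of a class. Breed follows the labels, and each animal counts once. Libraries are from separate animals. Limits from a count of 0 cover counting error only. The neighbourhood of 1 member is not reported here.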

Additional observations from a re-analysis of the deposited data

Results flagged for a closer look

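A breed's 4 libraries were examined for 1 library far from the other 3. Chance flags about 1 group in 20 where values are continuous. Values of a few reads tie, and some genes were chosen as most variable, so this rate need not hold here. Of the 122 groups examined, 12 were flagged. In 5 of these the other 3 libraries lay at or near 0 reads: LOC100299274 in Angus animal 2 (0.0348 CPM), LOC100337190 in Angus animal 3 (0.0672 CPM), LOC786594 in Holstein animal 4 (0.0282 CPM) and in Angus animal 3 (0.0336 CPM), and LOC100336229 in Angus animal 1 (0.209 CPM). LOC788149 held 0.243 CPM in Angus animal 2, above 0.0336 to 0.0535 in the others. LOC522017 held 0.314 CPM in Angus animal 1, above 0.139 to 0.168. LOC100297004 held 0.375 CPM in Angus animal 4, below 0.733 to 0.806. LOC785480 held 3.58 CPM in Holstein animal 4, above 2.35 to 2.43. LOC100300862 held 4.82 CPM in Angus animal 4, above 1.07 to 1.56.

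The median log2 ratio to the flanks of members with a coding exon was 0.248 in Angus animal 4 and 0.335 to 0.349 in the other Angus animals. The difference in median log2 level between members with and without a coding exon was -0.0757 in Holstein animal 4 and 0 in the other Holstein animals.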

How the results depend on the processing

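The 4 breed calls under 18 alternatives each gave 72 cases, of which 49 kept the call, 12 lost it and 11 had no test because the gene failed the CPM minimum. The 12 include LOC100848660 under DESeq2, which gave it no adjusted p. The alternatives of FDR < 0.05 and of no fold minimum reuse the main fit. There every edgeR adjusted p of the 4 was at most 0.00933, so these alternatives could not lose a call. The 13 named folds to the flanks, chosen as the most extreme, kept their call in 154 of 154 cases. No direction turned among the named genes tested. The breed count of 4 members became 1 with at least 1 CPM in all 8 libraries and 1 by DESeq2, 13 without a CPM minimum and 7 on Chr 1-29 only (5 higher in Holstein, 2 in Angus), and 2 to 3 when each library was left out. With the replicate block it stayed at 4, and since same-numbered animals correlated at -0.216, 0.0443, -0.0171 and 0.109 the numbers were not taken to pair the animals. Members above their flanks numbered 107 with a mean of 1 CPM over the 3 windows and 947 without a minimum, and 326 to 350 when each library was left out. Members below numbered 224 at a fold of 1.5, 60 with both flanks unnamed, 69 with 1 CPM, 327 without a minimum and 129 to 136 when each library was left out. The median log2 ratio of 0.316 became 0.0876 with 1 CPM added, 0.433 with 0.01 CPM added, 0.444 from summed reads, 0.394 with both flanks unnamed, 0.444 and 0.421 against the upstream and downstream window alone, 0.445 with 0.5 CPM over the 3 windows, and 0.281 without olfactory receptors, and 0.309 to 0.322 when each library was left out. The coding exon difference of -0.045 was -0.16 with both flanks unnamed, and turned to 0.0656 with means, 0.173 among members with 0.5 CPM in 4 libraries and 0.092 without olfactory receptors; it was -0.0514 to -0.0234 when each library was left out. Leaving out olfactory receptors was chosen after seeing the data. The causes of these changes were not tested. Median windows of 3 to 12 reads limit the precision for single low genes.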
